A study of Mus musculus with 6 samples.

Results

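The genes described here are 33 genes of peptide presentation by the major histocompatibility complex (MHC), taken by name from the 23415 genes of the deposited expression table. They cover the class I and class II molecules, the proteins that load peptides onto them, the inducible proteasome subunits and the factors that switch these genes on. All 33 names were found. The authors tested 28 of them. Liver RNA was compared between alkaline sphingomyelinase knockout mice and wildtype mice, 3 of each, all on a C57BL/6 background. Alkaline sphingomyelinase is an intestinal membrane enzyme, encoded by Enpp7, that splits dietary sphingomyelin. The deletion is not restricted to a cell type as far as the labels say, and no source used here gives age, sex or treatment. The genotype was read from the first letter of the sample names, K for knockout and W for wildtype.

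MHC class I molecules stand on nearly all nucleated cells and show peptides that the proteasome cuts in the cytosol. The TAP transporter carries these peptides into the endoplasmic reticulum, where tapasin helps load them and beta-2-microglobulin completes the complex. MHC class II molecules belong to antigen-presenting cells such as Kupffer cells, dendritic cells and B cells, and show peptides cut in endosomes. Interferon gamma induces both branches, through the transactivators Nlrc5 for class I and Ciita for class II. In the liver, hepatocytes carry class I, and class II lies mainly on leukocytes and sinusoidal cells.

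Each group has 1 deposited expression value per gene, in FPKM (fragments scaled to transcript length and to sequencing depth), and no value per mouse. No spread between mice could therefore be computed, and read depth per library is unknown. Ratios are log2 of knockout over wildtype from the authors' deposited table, with the standard error (SE) that the deposited test statistic implies, written below as ratio ± SE in brackets. A gene was called changed at a q under 0.05 there. In bulk liver RNA, more cells of a type and more RNA per cell cannot be told apart.

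The labelled tissue was checked first, since the design text speaks of intestine. The 10 hepatocyte markers summed to 32234 FPKM in knockout livers, against 29940 FPKM in wildtype livers. The highest was Apoa1, an apolipoprotein not particular to the liver, at 16007 FPKM in knockout livers, against 11662 FPKM in wildtype livers. Cyp2e1, another of these markers, stood at 2927 FPKM in knockout livers, against 3412 FPKM in wildtype livers. Of the 10 ratios 7 were below 0, with a median of -0.25 and 0 called. With equal totals, described next, 8 were below 0 and G6pc, a gluconeogenic enzyme, was called lower (q = 0.0136, recomputed from the authors' deposited table). The 9 intestinal epithelium markers summed to 49.7 FPKM in knockout livers, against 61.5 FPKM in wildtype livers. Most of this was Fabp2, at 42.9 FPKM in knockout livers, against 54.7 FPKM in wildtype livers. Enpp7 itself stood at 0.141 FPKM in knockout livers, against 0.0541 FPKM in wildtype livers, and was not tested, so it does not check the genotype. Alb and Apoe, abundant liver transcripts, are marked HIDATA and listed at 0, so they are missing from sums and ranks. All other listed values summed to 646306 FPKM in knockout livers, against 564749 FPKM in wildtype livers. Saa1 and Saa2, serum amyloid A genes, weigh on these sums. They stood at 14989 and 17481 FPKM in knockout livers, against 169 and 86.2 FPKM in wildtype livers. Equalising these sums, which thus depends in part on a few abundant genes, lowered every log2 ratio by 0.19. The median of all tested genes became -0.20 in place of -0.0012. Ratios and calls are given as deposited. The values with equal sums are given for some of the lists and for the members whose sign they turn.

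The start regions of the class I genes H2-K1, H2-D1, H2-Q7 and H2-Q10 are shown because they share the letters of the interferon element while the genes' levels differ. Capitals mark TTTCACTTC, the core of the interferon response element of class I genes, and GGGATTCCC, the core of the kappaB site in their enhancer. Sequences are from RefSeq (GRCm38.p6, the same assembly as mm10), 5′ to 3′ on the gene's strand, all before the start site.
H2-K1 (chr17:34000418-34000472, minus strand): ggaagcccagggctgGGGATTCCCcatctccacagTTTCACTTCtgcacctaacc
H2-D1 (chr17:35262909-35262963, plus strand): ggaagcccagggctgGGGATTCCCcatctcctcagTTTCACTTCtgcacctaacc
H2-Q7 (chr17:35439007-35439061, plus strand): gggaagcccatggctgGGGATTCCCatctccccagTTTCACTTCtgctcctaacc
H2-Q10 (chr17:35469899-35469953, plus strand): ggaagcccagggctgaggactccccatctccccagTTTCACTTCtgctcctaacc

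The start regions of H2-Aa, H2-Eb1, H2-Oa and H2-DMb1 are shown as the class II set. Capitals mark TGATTGG, the Y box, a site of the factor NF-Y in class II promoters.
H2-Aa (chr17:34287859-34287918, minus strand): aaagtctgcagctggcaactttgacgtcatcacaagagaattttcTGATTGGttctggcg
H2-Eb1 (chr17:34305761-34305820, plus strand): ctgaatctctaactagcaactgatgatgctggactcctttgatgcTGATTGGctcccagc
H2-Oa (chr17:34092289-34092348, plus strand): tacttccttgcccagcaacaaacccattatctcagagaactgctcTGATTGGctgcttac
H2-DMb1 (chr17:34153083-34153142, plus strand): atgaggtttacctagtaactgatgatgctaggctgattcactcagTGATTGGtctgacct

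Of the 33 members, 25 have a window in the RefSeq promoter table, and the 250 bases before the start site were searched on both strands. TTTCACTTC was found in 7 of the 25 (H2-K1, H2-D1, H2-Q4, H2-Q6, H2-Q7, H2-Q10 and H2-M3), against 0.402% of all 32851 windows. GGGATTCCC was found in 4 of the 25 (H2-K1, H2-D1, H2-Q6 and H2-Q7), against 0.301% of all windows. TGATTGG was found in 14 of the 25, against 7.23% of all windows. These 14 were H2-Aa, H2-Eb1, H2-DMb1, H2-DMb2, H2-Oa, H2-Ob, H2-D1, H2-Q4, H2-Q6, H2-Q7, H2-T22, H2-T23, Tap1 and Psmb9, the last pair by the same letters since their windows overlap. The 3 motifs overlap in none of the printed stretches. The motifs were chosen as sites of class I or class II genes, so their higher share among members is not an independent result. A match describes the letters and is not evidence of binding.

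No member passed the test in the knockout livers. Of the 28 tested members, 0 were called higher and 0 lower, where 0.573% and 0.504% of all tested genes were called in those directions (1.08% in either). At an unadjusted p under 0.05 in the authors' deposited table there were also 0 members, where 5.29% of all tested genes lay (2.82% on the higher side). Every tested member had q = 0.9998 there. The deposited ratios leaned upward: 27 of the 28 were above 0, where 49.9% of all tested genes were, and their median was 0.21. With equal sums, 15 of the 28 were above 0, where 22.8% of all tested genes were, and the members' median was 0.02. The 12 that then turned negative were H2-Ab1, Cd74, B2m, H2-Q4, H2-Q10, H2-T22, H2-T24, Tap2, Tapbp, Psmb8, Psme1 and Psme2, with ratios between -0.15 and -0.0056. The members' median stood 0.21 above the median of all tested genes, a difference that such scaling cannot alter, as it shifts every gene alike. The 33 members together made up 0.939% of the listed expression in knockout livers and 0.958% in wildtype livers.

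**Figure D1:**
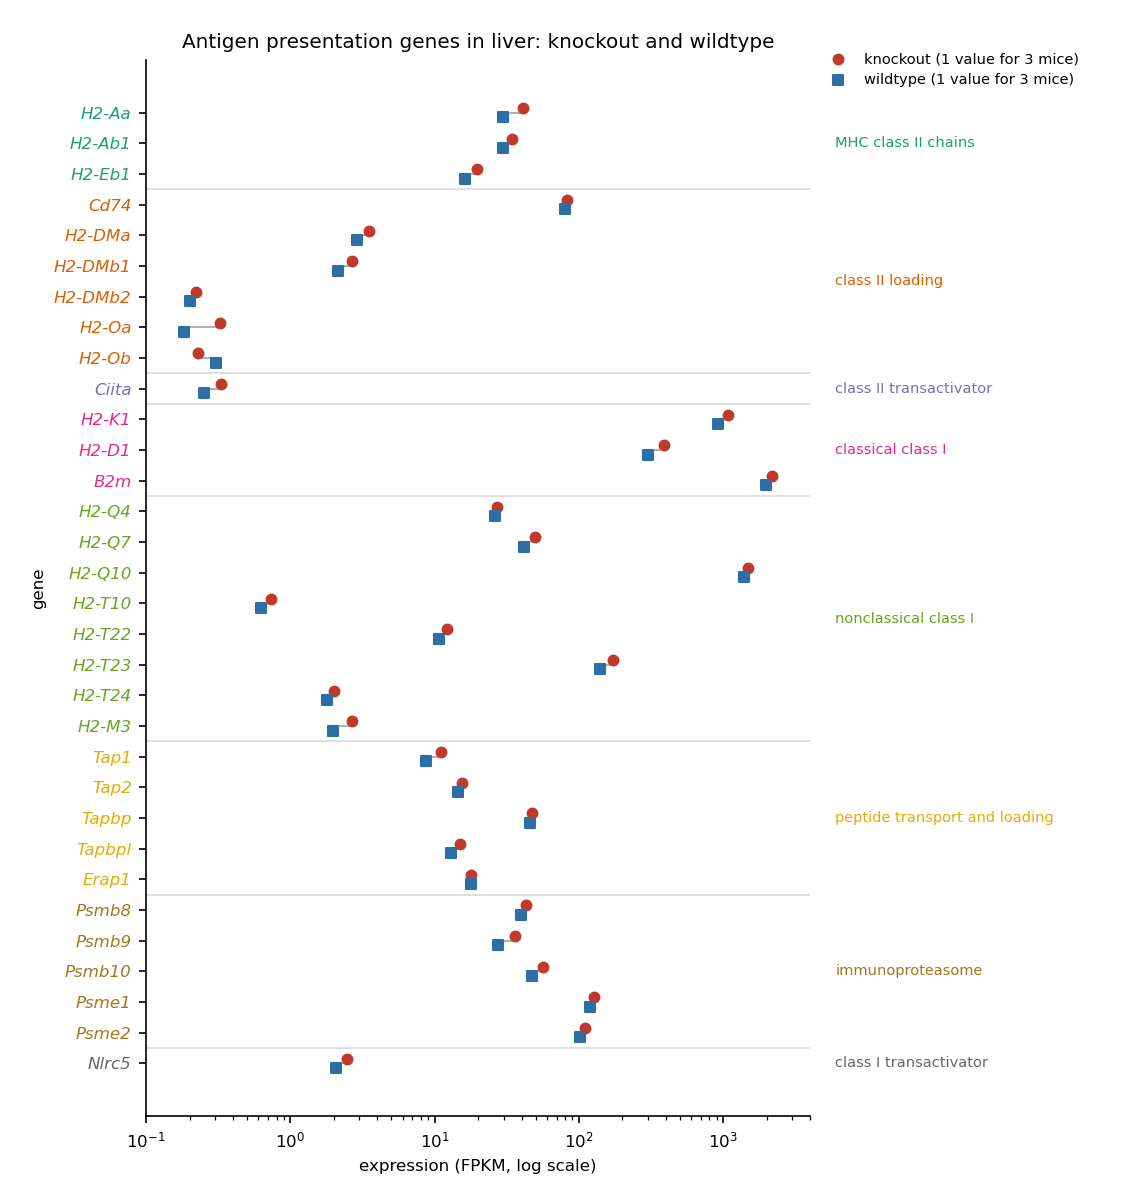
Expression of 32 members in FPKM on a log axis, with 1 deposited value per group of 3 mice (circles knockout, squares wildtype), grouped by role. H2-Q6 is listed at 0 in both groups and is not drawn. In all but H2-Ob and Erap1 the knockout value lies to the right, by steps that are small beside the spread of levels between genes, from 0.223 FPKM for H2-DMb2 to 2182 FPKM for B2m in knockout livers.

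The errors limit what could be seen. The SE of the members ran from 0.22 for Erap1 to 1.64 for H2-T24, with a median of 0.26, and the smallest called ratio of any gene, in either direction, was 0.78 in size. The 95% interval (1.96 SE either side, on the authors' model) held 0 for all 28 tested members. For 23 of them it lay within 2-fold in both directions, so a change of 2-fold or more is outside the interval for these. H2-DMb1, H2-T10, H2-T22, H2-T24 and H2-M3 had intervals that reached 2-fold.

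The class II chains H2-Aa, H2-Ab1 and H2-Eb1 are chains of the peptide-binding molecules I-A and I-E. H2-Aa, the alpha chain of I-A (chr17:34282751-34287771, mm10), stood at 41.2 FPKM in knockout livers, against 29.7 FPKM in wildtype livers. Its log2 ratio in the authors' deposited table was 0.47 ± 0.25 (SE), which is 1.39-fold with a 95% interval of 0.987 to 1.95-fold and p = 0.0598. It was the largest ratio and the smallest p among the tested members, and it did not pass. H2-Ab1, the beta chain of I-A, stood at 34.2 FPKM in knockout livers, against 30.0 FPKM in wildtype livers (0.19 ± 0.25). H2-Eb1, the beta chain of I-E, stood at 19.7 FPKM in knockout livers, against 16.1 FPKM in wildtype livers (0.30 ± 0.25). The alpha and beta chains of I-A pair one to one, and their FPKM ratio was 1.21 in knockout livers, against 0.990 in wildtype livers. C57BL/6 mice carry the b haplotype of the MHC, in which the alpha chain gene of I-E is not expressed. Its pseudogene entry H2-Ea-ps was at 0.0295 FPKM in knockout livers and listed at 0 in wildtype livers.

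Of the class II loading proteins, Cd74 was the most abundant. Cd74, the invariant chain that guides class II molecules to endosomes, stood at 82.6 FPKM in knockout livers, against 80.0 FPKM in wildtype livers. Its log2 ratio in the authors' deposited table was 0.05 ± 0.29 (SE), and it was -0.15 with equal sums. H2-DMa and H2-DMb1 encode the exchange factor DM, which swaps the Cd74 fragment for antigenic peptide. H2-DMa stood at 3.51 FPKM in knockout livers, against 2.88 FPKM in wildtype livers (0.28 ± 0.35). H2-DMb1 stood at 2.66 FPKM in knockout livers, against 2.14 FPKM in wildtype livers (0.31 ± 0.42). The other 4 genes of the branch were near the floor and had no test. H2-DMb2, a second DM beta chain, was at 0.223 FPKM in knockout livers, against 0.202 FPKM in wildtype livers. H2-Oa and H2-Ob, the chains of the DM inhibitor DO, were at 0.325 and 0.230 FPKM in knockout livers, against 0.184 and 0.304 FPKM in wildtype livers. DO is known mainly from B cells. Ciita, the transactivator on which class II transcription depends, was at 0.329 FPKM in knockout livers, against 0.251 FPKM in wildtype livers.

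The 3 class II chains and Cd74 together were 1.14-fold higher as a sum, at 178 FPKM in knockout livers, against 156 FPKM in wildtype livers. Markers of the cells that carry class II were not level between the groups. The 12 Kupffer cell and macrophage markers were all tested and all above 0. Of these 9 had an unadjusted p under 0.05, all higher, where 2.82% of all tested genes did. As deposited 2 were called higher, where 0.573% of all tested genes were. Marco, a scavenger receptor, stood at 5.96 FPKM in knockout livers, against 2.52 FPKM in wildtype livers. C1qa, a complement subunit, stood at 96.4 FPKM in knockout livers, against 55.7 FPKM in wildtype livers. With equal sums neither was called (q = 0.0714 for Marco and 0.253 for C1qa, recomputed from the authors' deposited table) and 10 of the 12 ratios were above 0. They summed to 591 FPKM in knockout livers, against 381 FPKM in wildtype livers, 1.55-fold. The class II sum was 0.300 of that marker sum in knockout livers, against 0.409 in wildtype livers. This fall depends on the markers summed. In knockout livers the highest were C1qc, Cd5l, C1qa and C1qb, with log2 ratios from 0.66 to 0.79. Cd68 stood at 12.97 FPKM in knockout livers, against 11.5 FPKM in wildtype livers (1.13-fold). Timd4 stood at 3.68 FPKM in knockout livers, against 3.64 FPKM in wildtype livers (1.01-fold). Relative to Cd68 and Timd4 the class II sum did not fall, while every other marker of the 12 rose by more than 1.14-fold. The 5 markers of all leukocytes summed to 44.0 FPKM in knockout livers, against 29.0 FPKM in wildtype livers, with 5 of 5 ratios above 0. Of 10 dendritic cell markers 3 were tested, and the list summed to 5.60 FPKM in knockout livers, against 3.61 FPKM in wildtype livers. Most of this difference lay in Batf3, at 2.39 FPKM in knockout livers, against 0.901 FPKM in wildtype livers. Xcr1 and Ccr7, near the floor and not tested, were lower in knockout livers. The lymphoid lists were low in both groups. The 7 B cell markers summed to 1.62 FPKM in knockout livers, against 2.43 FPKM in wildtype livers, with 1 tested. The 9 T and NK cell markers summed to 4.57 FPKM in knockout livers, against 4.70 FPKM in wildtype livers, with 2 of 4 tested ratios above 0. The 10 neutrophil markers summed to 109 FPKM in knockout livers, against 6.28 FPKM in wildtype livers. Under either scaling 9 of 9 tested ratios were above 0 and 4 were called higher, where 0.573% of all tested genes were as deposited. The 10 sinusoidal endothelium markers summed to 140 FPKM in knockout livers, against 149 FPKM in wildtype livers, with 8 of 10 ratios below 0 (10 of 10 with equal sums). No marker in these lists was at 0 in either group. The part of these cells in the antigen presentation ratios was not tested.

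**Figure D2:**
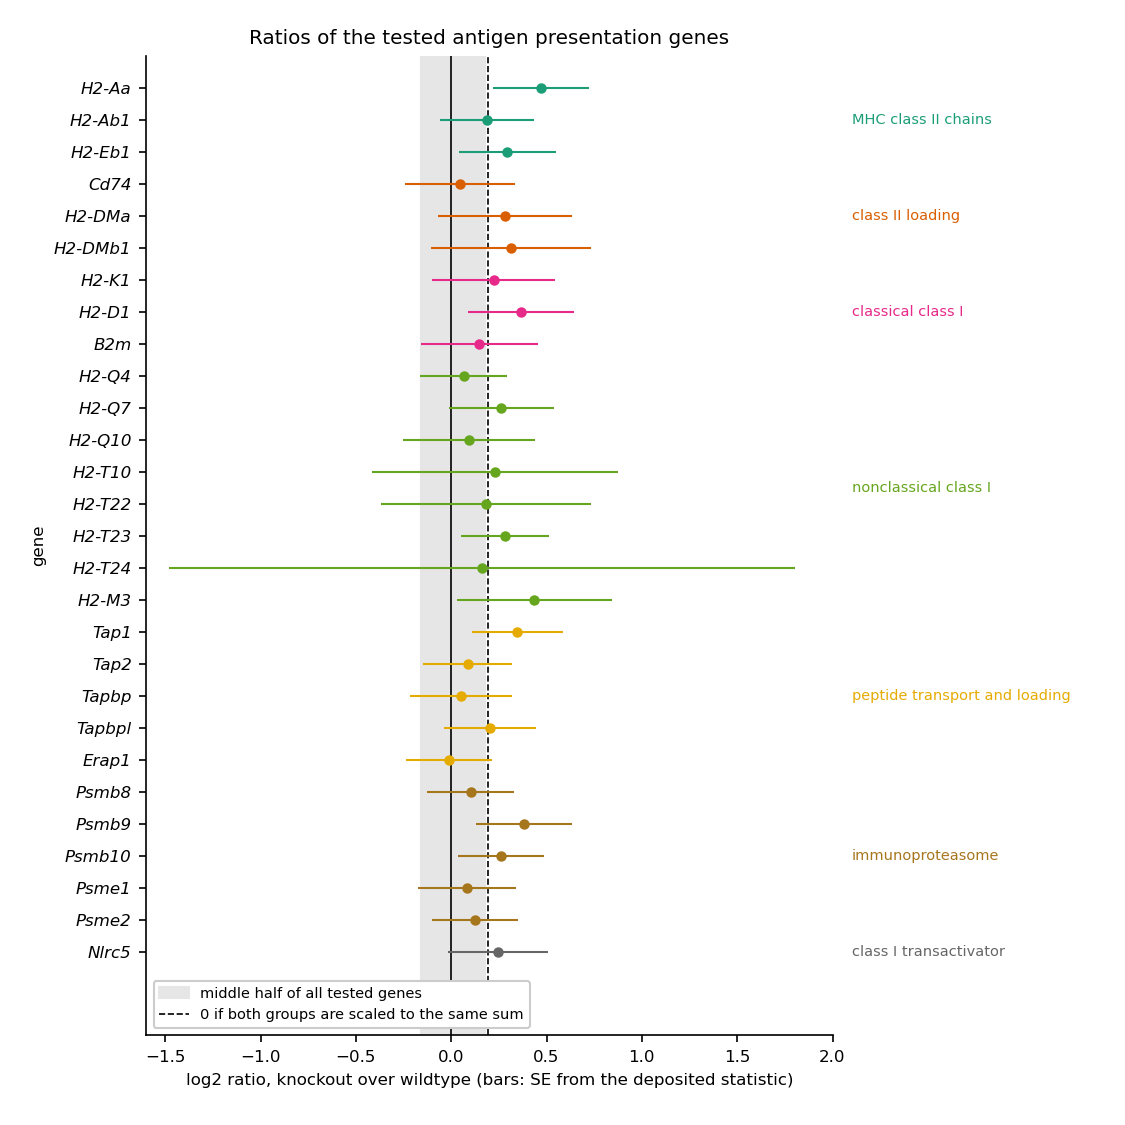
Log2 ratio of knockout over wildtype for the 28 tested members, with bars of 1 SE from the deposited test statistic. The grey band spans the 25th to 75th percentile of all tested genes (-0.16 to 0.17) and the dashed line is where 0 would lie with equal sums. Of the 28 points 27 lie right of 0 and 15 lie right of the dashed line.

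Some class I transcripts, those of B2m, H2-Q10 and H2-K1, were among the most abundant of the liver in both groups. B2m, beta-2-microglobulin (chr2:122120108-122186189 in the table, a span shared with Patl2 and Trim69), stood at 2182 FPKM in knockout livers, against 1969 FPKM in wildtype livers, rank 33 in each among the genes listed with a level. Its log2 ratio in the authors' deposited table was 0.15 ± 0.31 (SE), and -0.05 with equal sums. H2-K1, the K heavy chain, which presents peptides to CD8 T cells, stood at 1082 FPKM in knockout livers, against 928 FPKM in wildtype livers (0.22 ± 0.32). H2-D1, the D heavy chain, stood at 388 FPKM in knockout livers, against 301 FPKM in wildtype livers. Its ratio of 0.37 ± 0.28 (p = 0.187 in the authors' deposited table) was the largest of the classical class I genes. H2-K1 held 2.79 times the FPKM of H2-D1 in knockout livers, against 3.08 times in wildtype livers.

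The value of H2-D1 is tied to a second entry. H2-L, listed at the identical locus (chr17:35263094-35267497), stood at 67.6 FPKM in knockout livers, against 35.9 FPKM in wildtype livers, with a ratio of 0.91 ± 1.00 in the authors' deposited table. The L heavy chain gene is absent from the b haplotype of C57BL/6 mice. H2-D1 and H2-L added, a check chosen after the values were seen, gave 456 FPKM in knockout livers, against 337 FPKM in wildtype livers, a log2 ratio of 0.44.

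Among the nonclassical class I genes, H2-Q10 held most of the transcript. H2-Q10 encodes a secreted class I heavy chain that hepatocytes release into serum. It stood at 1485 FPKM in knockout livers, against 1392 FPKM in wildtype livers, above H2-K1 in both groups. Its log2 ratio in the authors' deposited table was 0.09 ± 0.35 (SE). With equal sums it was -0.10 and after quantile normalization -0.04. H2-Q10 has the class I interferon element printed above and no match to GGGATTCCC in that window, while H2-K1 and H2-D1, with ratios of 0.22 and 0.37, hold both motifs. The differences between these ratios lie within their SE. H2-Q4 and H2-M3, which also hold the interferon element without a match to GGGATTCCC, had ratios of 0.07 and 0.44. H2-Q7, with both motifs, had a ratio of 0.26. A link between motif and ratio was not tested.

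H2-T23, which encodes Qa-1, the ligand of the NK cell receptor NKG2A, stood at 171 FPKM in knockout livers, against 141 FPKM in wildtype livers (0.28 ± 0.23 in the authors' deposited table). H2-Q7, a chain of the membrane-anchored molecule Qa-2, stood at 49.8 FPKM in knockout livers, against 41.5 FPKM in wildtype livers (0.26 ± 0.28). H2-Q4 stood at 27.2 FPKM in knockout livers, against 26.0 FPKM in wildtype livers (0.07 ± 0.23). H2-T22, a ligand of gamma delta T cells, stood at 12.2 FPKM in knockout livers, against 10.8 FPKM in wildtype livers (0.18 ± 0.55). By level these 4 genes stood in the same order in both groups. The remaining nonclassical genes were low. H2-M3, which presents formylated bacterial peptides, stood at 2.68 FPKM in knockout livers, against 1.98 FPKM in wildtype livers (0.44 ± 0.41). H2-T24 stood at 2.01 FPKM in knockout livers, against 1.80 FPKM in wildtype livers, with the widest error of the tested members (0.16 ± 1.64). H2-T10, a close relative of H2-T22, stood at 0.735 FPKM in knockout livers, against 0.628 FPKM in wildtype livers (0.23 ± 0.64). H2-Q6 is marked LOWDATA and listed at 0 in both groups.

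Some class I genes share long stretches of sequence, and reads were 50 nt long. For each member the 50-base words of its GENCODE M21 transcripts were counted, and those also found in a transcript of another gene. The other gene need not be of class I: H2-T24 shared most with Chst10 (1.61%). Over 20% of the words were shared for 9 members and under 1% for another 9. The highest shares were 53.5% for H2-T22 and 50.4% for H2-T10, with the largest part shared between these genes (31.2% and 31.7%). H2-Q4 shared 36.4%, H2-Q7 26.5%, H2-Q10 19.1%, H2-D1 12.8% and H2-K1 9.63%. In the class II branch H2-DMb1 and H2-DMb2 shared 22.7% and 25.9%, while H2-Aa shared 0.514% and H2-Ab1, H2-Eb1 and Cd74 shared 0%. Psme2 shared 28.3% with the gene Psme2b, and Tapbp shared 23.2%, most of it with Gm19412. No source used here says how the authors counted reads that map to several places. The values of the Q and T genes, and of other members with large shares, are therefore uncertain one by one. In the table H2-Q7 shares its locus with H2-Q9, H2-Q6 with H2-Q8, and H2-T22 with H2-T9. H2-T23 and H2-T24 also share a locus, as do Psme1 and Emc9, which stood at 52.6 FPKM in knockout livers, against 50.3 FPKM in wildtype livers. Added in pairs, H2-Q7 and H2-Q9 had 64.2 FPKM in knockout livers, against 53.5 FPKM in wildtype livers. H2-Q6 and H2-Q8 had 14.8 FPKM in knockout livers, against 17.1 FPKM in wildtype livers. H2-T22 and H2-T9 had 43.6 FPKM in knockout livers, against 37.02 FPKM in wildtype livers.

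**Figure D3:**
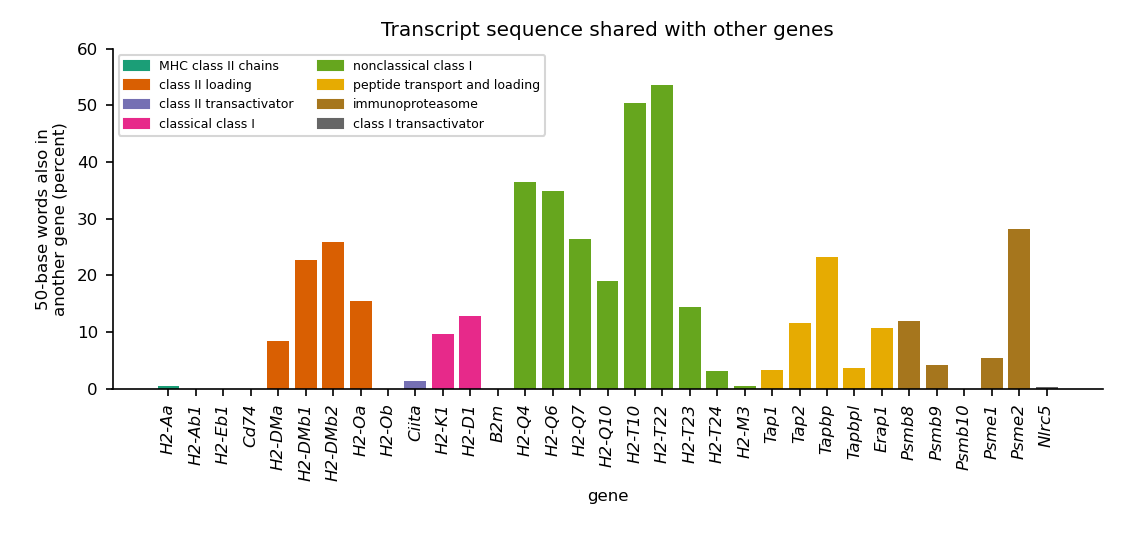
Percent of the distinct 50-base words in each member's GENCODE M21 transcripts that also occur in a transcript of another gene, on either strand, coloured by role. Members with no bar have a share of 0% or too low to see. The 4 highest bars are the nonclassical class I genes H2-T22, H2-T10, H2-Q4 and H2-Q6, led by H2-T22 at 53.5%, while H2-M3 of the same role stands at 0.576%.

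The genes of peptide transport and loading had a low median ratio. Tap1 and Tap2 pair to form the peptide transporter. Tap1 stood at 11.0 FPKM in knockout livers, against 8.63 FPKM in wildtype livers (0.35 ± 0.24, p = 0.144 in the authors' deposited table). Tap2 stood at 15.5 FPKM in knockout livers, against 14.6 FPKM in wildtype livers (0.09 ± 0.23). Tapbp, tapasin, which bridges class I to the transporter, stood at 47.3 FPKM in knockout livers, against 45.6 FPKM in wildtype livers (0.05 ± 0.27). Tapbpl, a tapasin relative that edits the peptide on class I, stood at 14.9 FPKM in knockout livers, against 12.98 FPKM in wildtype livers (0.20 ± 0.24). Erap1, the aminopeptidase that trims peptides in the endoplasmic reticulum, was the only tested member below 0, at 17.7 FPKM in knockout livers, against 17.9 FPKM in wildtype livers (-0.01 ± 0.22). The median of these 5 ratios was 0.09, against 0.21 over all tested members and -0.0012 over all tested genes. With equal sums it was -0.11, with 2 of the 5 above 0.

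The immunoproteasome subunits replace the catalytic subunits of the standard proteasome where interferon gamma acts. Psmb9 stood at 35.8 FPKM in knockout livers, against 27.4 FPKM in wildtype livers (0.38 ± 0.25, p = 0.131 in the authors' deposited table). Psmb10 stood at 56.3 FPKM in knockout livers, against 47.0 FPKM in wildtype livers (0.26 ± 0.23). Psmb8 stood at 42.7 FPKM in knockout livers, against 39.8 FPKM in wildtype livers (0.10 ± 0.23). Set against the subunit that each replaces, Psmb8 held 0.258 of the FPKM of Psmb5 in knockout livers, against 0.264 in wildtype livers. Psmb9 held 0.200 of the FPKM of Psmb6 in knockout livers, against 0.182 in wildtype livers. Psmb10 held 0.310 of the FPKM of Psmb7 in knockout livers, against 0.272 in wildtype livers. The standard subunit was thus the more abundant of each pair in both groups. Psme1 and Psme2, the subunits of the proteasome activator PA28, stood at 127 and 110 FPKM in knockout livers, against 120 and 101 FPKM in wildtype livers (0.08 ± 0.26 and 0.12 ± 0.23). The median of these 5 immunoproteasome ratios was 0.12 as deposited. With equal sums it was -0.07, with 2 of the 5 above 0. Nlrc5, the class I transactivator, stood at 2.46 FPKM in knockout livers, against 2.07 FPKM in wildtype livers (0.25 ± 0.26).

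Psmb9 and Tap1 lie head to head with 225 bases between their start sites, and their ratios of 0.38 and 0.35 were the highest of their groups. The stretch between the 2 start sites (chr17:34187331-34187555, GRCm38.p6, RefSeq) is shown on the strand of Tap1 because it lies before the start of both genes. Capitals mark the Y box on the opposite strand, at the Psmb9 end.
Psmb9 to Tap1: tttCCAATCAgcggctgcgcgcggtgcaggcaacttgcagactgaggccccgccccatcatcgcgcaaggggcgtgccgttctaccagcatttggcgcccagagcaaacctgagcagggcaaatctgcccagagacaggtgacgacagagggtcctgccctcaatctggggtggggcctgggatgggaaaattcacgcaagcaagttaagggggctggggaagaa

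Most members lie in the MHC itself. Chromosome 17 held 24 of the 33, of which 20 were tested, and all 20 ratios were above 0 as deposited, with a median of 0.25. The other 9 members, on other chromosomes, had 8 tested, 7 above 0 and a median of 0.14. By branch, the 6 tested class II genes had a median of 0.29 and the 22 tested class I genes 0.19. The spread among single ratios in each branch, from 0.05 to 0.47 and from -0.01 to 0.44, is wider than these differences, which were not tested. With equal sums 12 of the 20 ratios on chromosome 17 were above 0 with a median of 0.05, and 3 of the 8 elsewhere with a median of -0.06. The class II median was then 0.09 and the class I median -0.0016.

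The rest of the pathway was read from lists chosen beside the members. Of 15 tested regulators and proteases of class II, 0 were called, 11 ratios were above 0 and the median was 0.15. The only one with an unadjusted p under 0.05 was Ctss, cathepsin S, which degrades the invariant chain. It stood at 44.1 FPKM in knockout livers, against 27.5 FPKM in wildtype livers (0.68 ± 0.24, q = 0.235 in the authors' deposited table). Of 15 other tested class I genes, 0 were called and 0 had an unadjusted p under 0.05. Their median was 0.06, and H2-Q5 had the smallest p, at 17.2 FPKM in knockout livers, against 13.4 FPKM in wildtype livers (p = 0.1603 in the authors' deposited table). Of the 15 standard proteasome genes, 0 were called, 0 had an unadjusted p under 0.05 and 12 ratios were above 0, with a median of 0.08. Psme3, which encodes PA28 gamma, a nuclear proteasome activator, had the smallest p, at 16.9 FPKM in knockout livers, against 20.3 FPKM in wildtype livers (p = 0.250 in the authors' deposited table). With equal sums the medians of these 3 lists were below 0, at -0.04 for the class II regulators and proteases, -0.13 for the other class I genes and -0.11 for the standard proteasome.

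Genes of interferon gamma signalling also held no call, though 4 of the 21 tested had an unadjusted p under 0.05, all 4 higher, where 2.82% of all tested genes were. Irf1, a factor that binds the class I interferon element, stood at 22.3 FPKM in knockout livers, against 11.4 FPKM in wildtype livers (0.96 ± 0.30, q = 0.0990 in the authors' deposited table). Cxcl10, a T cell attractant, stood at 7.19 FPKM in knockout livers, against 2.83 FPKM in wildtype livers (1.35 ± 0.43, q = 0.115 in the same table of the authors). Socs1, a feedback inhibitor, stood at 1.74 FPKM in knockout livers, against 0.609 FPKM in wildtype livers (q = 0.390 in the authors' deposited table). Irf8, a factor of myeloid cells, stood at 4.83 FPKM in knockout livers, against 3.19 FPKM in wildtype livers (q = 0.843 in the authors' deposited table). Ifng itself was at 0.0198 FPKM in knockout livers and listed at 0 in wildtype livers. As deposited the list's median was 0.24, beside 0.21 for the tested members and 0.54 for the Kupffer cell and macrophage markers. With equal sums these medians were 0.05, 0.02 and 0.35, and 13 of the 21 interferon gamma ratios were above 0.

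**Figure D4:**
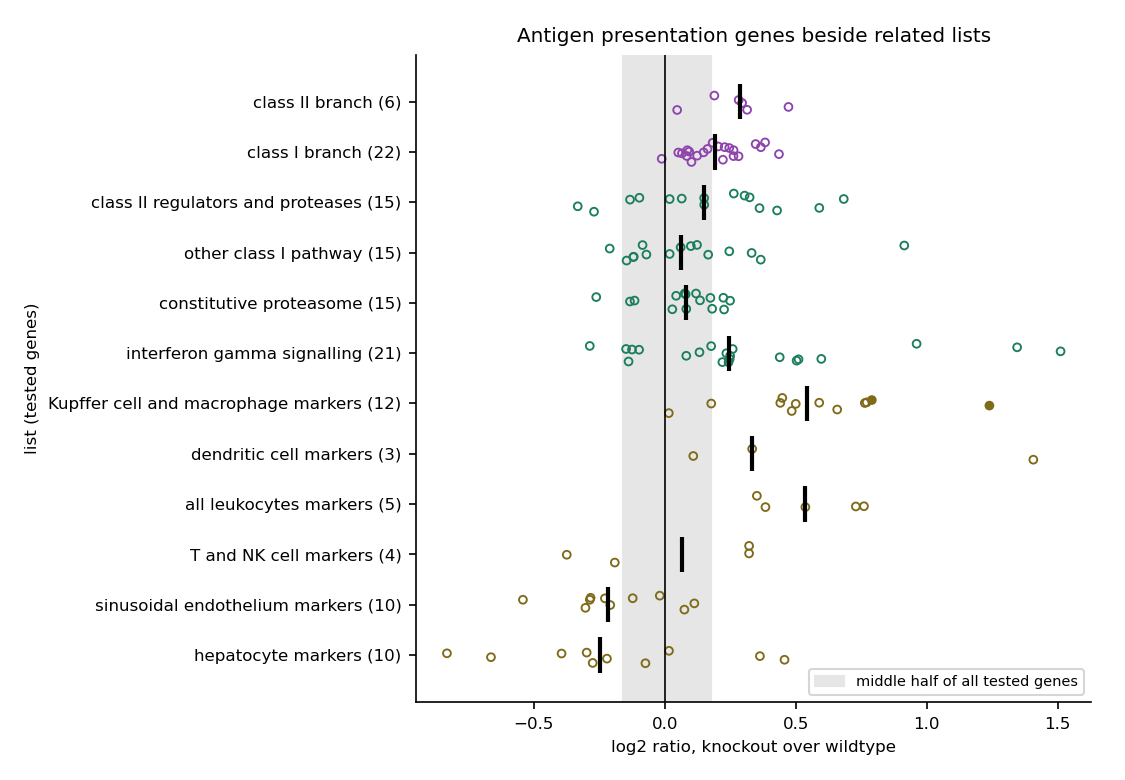
Log2 ratio of knockout over wildtype for each tested gene (circles, filled where the authors' deposited table has q under 0.05) of the class II and class I members, 4 related pathway lists and 6 marker lists, with the list median as a black bar and the number tested in brackets. The grey band spans the 25th to 75th percentile of all tested genes. The members' medians of 0.29 and 0.19 lie between those of the standard proteasome (0.08) and the Kupffer cell and macrophage markers (0.54). These markers hold the only 2 filled circles drawn, neither of them called with equal sums. The neutrophil, B cell and intestinal epithelium markers are not drawn. Of the neutrophil markers 4 were called, under either scaling.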

How the data were processed

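Liver RNA of 6 mice was sequenced as single-end reads of 50 nt, per the labels. Per the submitters' processing notes, the aligner was Bowtie2 and the genome mm10; the program behind the table is not stated. The authors deposited 1 value per gene and group, treated as FPKM because the layout is that of a Cuffdiff table. The deposited log2 values have wildtype on top, so their sign was turned round. The deposited test score behaves as a standard normal z, and the deposited q-value equals a Benjamini-Hochberg correction of the deposited p-value over 11515 tested genes. Of these, 59 with a value of 0 in 1 group have no finite ratio and stayed out of medians. With no value per mouse, the limma test planned for such values was not run, and calls are the authors' q under 0.05. The SE is the ratio divided by z, an error of the authors' model. The series' design text speaks of 3 pairs of mice, one of each genotype, without saying which mice pair. Strand use in counting is not stated, so overlapping and antisense genes are uncertain. Read depth is unknown, so no counting interval is given.

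Starts in the deposited table count from 0 (start plus 1 equalled RefSeq's for 7629 of the 10580 genes with an equal end), and 1 was added. Columns of other series' samples numbered 0. The members and lists were chosen with earlier results of these data known. All 33 members are accounted for, and of the pathway lists those genes with an unadjusted p under 0.05 or the smallest p are named. Python 3.11.15, numpy 2.4.6, pandas 2.3.3, scipy 1.17.1 and matplotlib 3.10.9 were used; the recomputed statistics were tested on simulated data. Alternatives were 2 scalings, pseudocounts of 1 and 0.5, a minimum mean of 1 FPKM and no filter.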

Additional observations from a re-analysis of the deposited data

How the results depend on the processing

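The count of 0 members called, in each direction, was the same with the sums of both groups made equal, after quantile normalization and with a minimum mean of 1 FPKM. The smallest member q there was 0.792, 0.9996 and 0.974. Equal sums changed the count of ratios above 0 to 15 and the members' median to 0.0181, since this lowers every ratio alike. It turned the ratios of 12 members negative: Cd74 (-0.15), Tapbp (-0.14), H2-Q4 (-0.13), Psme1 (-0.11), Tap2 (-0.11), H2-Q10 (-0.10), Psmb8 (-0.093), Psme2 (-0.071), B2m (-0.047), H2-T24 (-0.032), H2-T22 (-0.012) and H2-Ab1 (-0.0056). Erap1, negative as deposited, was at -0.21. The sums at shared loci were added after the data were seen. Over all genes that scaling called 49 higher and 140 lower, against 66 and 58 as deposited. Quantile normalization turned negative H2-Q10 (-0.043) and B2m (-0.032), and the cause was not tested. Medians under the other settings lay between 0.18 and 0.21. No paired analysis was possible because the table holds no value per mouse, and for the same reason no replicate could be left out.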

Other observations

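H2-Q6 carries a log2 ratio of -0.21 (turned to knockout over wildtype) in the authors' deposited table although both of its values are 0. The same ratio is given there for H2-Q8, the gene at the identical locus, at 14.8 FPKM in knockout livers, against 17.1 FPKM in wildtype livers. H2-Q9, listed beside H2-Q7, is marked LOWDATA as well, but with values of 14.4 FPKM in knockout livers, against 12.0 FPKM in wildtype livers.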
